A study of Rattus norvegicus with 2 samples.

Results

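The proteasome genes of stellate ganglia neurons were taken as the gene symbols made of Psm, a letter from a to g and a number, the same in both deposited tables. This gave 47 of 25395 genes, and each of the 47 was placed in a subunit group by its letter and number. The groups were 7 core alpha genes (Psma), 8 core beta genes (Psmb), the 3 immunoproteasome genes Psmb8, Psmb9 and Psmb10, 6 ATPase genes (Psmc), 14 non-ATPase genes (Psmd), 5 genes of activators and an inhibitor (Psme and Psmf1), and 4 genes of assembly chaperones (Psmg). The stellate ganglia, sympathetic ganglia that innervate the heart, were dissociated with collagenase IV and trypsin, and single cells were sequenced in droplets with 10x Genomics Single cell 3' v3 chemistry. One library was made from male Wistar rats, labelled normotensive, and the other from male prehypertensive SHRs, with all animals aged 5 to 6 weeks. The Wistar is an outbred stock and the SHR an inbred strain, neither group carries a transgene or treatment in the labels, and the labels do not give the number of animals behind a library. With 1 library per strain no difference has a replicate check, so the strains are compared by size alone and no test of the strains is given.

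The proteasome is the barrel-shaped protease that degrades ubiquitin-tagged proteins in the cytosol and nucleus. Its 20S core is built of outer rings of alpha subunits, which gate the entry, and inner rings of beta subunits, of which a few carry the cutting sites. The 19S regulatory particle caps the core: its ATPase ring unfolds the substrate and threads it in, and its non-ATPase subunits form the rest of the base and the lid, which bind the ubiquitin chain and remove it. Under interferon the cutting subunits can be replaced by those of the immunoproteasome, which favors peptides for antigen presentation. Neurons rely on the constitutive form, and their protein turnover at axons and synapses depends on it.

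Short promoter stretches are shown for the genes with the highest level (Psmb5) and the largest difference between the strains (Psme4). Those of Psmb8 and Psmb10 are shown as examples of the immunoproteasome. The sequences are from RefSeq on the GRCr8 build, run from 100 bases before to 20 bases after the start of the gene, and are written in the direction of the gene. Capitals mark a match, on either strand, to TGACNNNGC, the core of the antioxidant response element to which the proteasome regulator Nfe2l1 binds, to GAAANNGAA, the core of the interferon stimulated response element, to CCAAT, to the GC box GGGCGG, or to the TATA box TATAAA.
Psmb5 (chr15:32047360-32047479, minus strand): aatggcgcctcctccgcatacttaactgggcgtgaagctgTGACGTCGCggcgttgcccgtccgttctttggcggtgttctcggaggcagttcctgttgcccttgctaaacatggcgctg
Psme4 (chr14:108706543-108706662, plus strand): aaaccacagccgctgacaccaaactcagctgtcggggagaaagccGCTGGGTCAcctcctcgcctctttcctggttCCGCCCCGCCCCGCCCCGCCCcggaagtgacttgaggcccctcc
Psmb8 (chr20:4657012-4657131, minus strand): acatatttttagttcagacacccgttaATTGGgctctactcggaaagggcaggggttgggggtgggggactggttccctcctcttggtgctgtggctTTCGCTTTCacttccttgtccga
Psmb10 (chr19:50743273-50743392, minus strand): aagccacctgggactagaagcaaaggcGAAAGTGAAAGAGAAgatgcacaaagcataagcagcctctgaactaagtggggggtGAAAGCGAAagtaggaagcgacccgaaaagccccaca

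Of the 47 genes, 42 had a promoter of 300 bases in the RefSeq table. The Psmb5 stretch holds 1 match to the antioxidant response element core, at base -60 from the start, and no GC box. In Psme4 a match to the same core, read on the opposite strand, begins at base -55, and 4 overlapping GC boxes follow it. The interferon element core was found at 3 places in Psmb10, from bases -73, -67 and -17, of which the first 2 overlap, and at 1 place across the start of Psmb8. Over the 300 bases, the antioxidant element core was present in 7 of the 42 promoters (16.7%), against 12.1% of all 33469 promoters and 15.6% of the 5910 promoters of genes past the expression minimum. The interferon element core was present in 9 of 42 (21.4%), against 9.71% of all promoters and 6.65% of those past the minimum. Those 9 promoters belong to Psma4, Psmb2, Psmb3, Psmb8, Psmb10, Psmd7, Psmd11, Psme2 and Psmg4. GC boxes were present in 30 of 42 (71.4%), against 33.1% of all promoters and 66.9% of those past the minimum, and TATAAA in 4 of 42 (9.52%), against 14.2% and 5.92%. CCAAT was present in 20 of 42 (47.6%), against 37.5% and 38.1%. The matches are letters in these windows and do not show that a factor binds there.

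Levels are means over the neurons of a library, in counts per 10000 counts of a cell. The 3' chemistry counts each captured molecule once, whatever its length, so levels of different genes were not divided by length, though capture can differ between genes. A difference was taken as the SHR value minus the Wistar value, each being log2 of 1 plus the mean, and the added 1 makes it smaller for genes of low level. The depth per neuron and the number of neurons are not in the deposited values, so counting error is unknown. Genes with an average over both libraries of at least 0.1 per 10000 were past the minimum, 7621 genes in all. Sympathetic markers were present in both libraries, with Th at 10.2 per 10000 in Wistar and 10.1 in SHR, but they were not all level between the strains. Of the 10 markers 3 were higher and 7 lower in SHR, beside 34.4% and 65.6% of all genes past the minimum. A difference of at least 0.25, the size limit used here, was reached by 2 upward and 3 downward, beside 6.53% and 11.8% of genes. Those downward were Dbh, with a difference of -0.61 between 10.2 in Wistar and 6.36 in SHR, Slc18a2, with -0.46 between 5.36 and 3.63, and Npy, with -0.45 between 2.38 and 1.48. Those upward were Phox2a, at 6.03 and 7.82, and Uchl1, described further on. Among markers of other cells, the sums for satellite glia, fibroblasts and immune cells were higher in the Wistar values. No endothelium, smooth muscle or erythrocyte marker was past the minimum. The 8 satellite glia markers summed to 8.30 per 10000 in Wistar and 2.82 in SHR, of which Apoe held 6.24 and 2.23. The 5 fibroblast markers summed to 1.82 and 0.352, and the 8 immune markers to 1.34 and 0.440. None of these genes was at 0 in both. The difference also moved with level over all genes. In bands of level, its median was -0.061 for both the 4423 genes at 0.1 to 0.5 per 10000 and the 1522 genes at 0.5 to 1, and -0.016 for the 904 genes at 1 to 2. Above this it was 0.072 for the 288 genes at 2 to 3, 0.15 for the 211 genes at 3 to 5, and 0.24 for the 273 genes at 5 or more. The part of glial RNA and of level in the differences given here was not tested.

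Together the proteasome genes took nearly the same part of the neuronal counts in both strains. Their means summed to 74.2 per 10000 in Wistar and 74.5 in SHR, a percent change of 0.416%. Of the 47 genes, 42 were past the minimum, and 18 of these were higher and 24 lower in SHR, so that 42.9% were higher, beside 34.4% of all genes past the minimum and 54.5% of the genes at 1 per 10000 or more. With the median of all genes set to 0, 24 were higher and 18 lower. Their median difference as deposited was -0.034, beside -0.052 for all genes past the minimum. The size limit was reached upward by 2 proteasome genes, Psma7 and Psmb5, beside 6.53% of all genes, and downward by 2, Psma4 and Psme4, beside 11.8% of all genes. With the median of each band of level set to 0 in place of this, Psma7 was at 0.18 and Psmb5 at 0.070, both under the limit, Psmb4 was past it at 0.25, and Psma4 and Psme4 stayed past it at -0.42 and -0.48, joined by Psmc6 at -0.28. The log levels of the 42 genes ran together in the libraries, with a Pearson r of 0.97. It was 0.93 for all genes past the minimum that were above 0 in both. These values are across genes, which are not independent replicates.

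**Figure D1:**
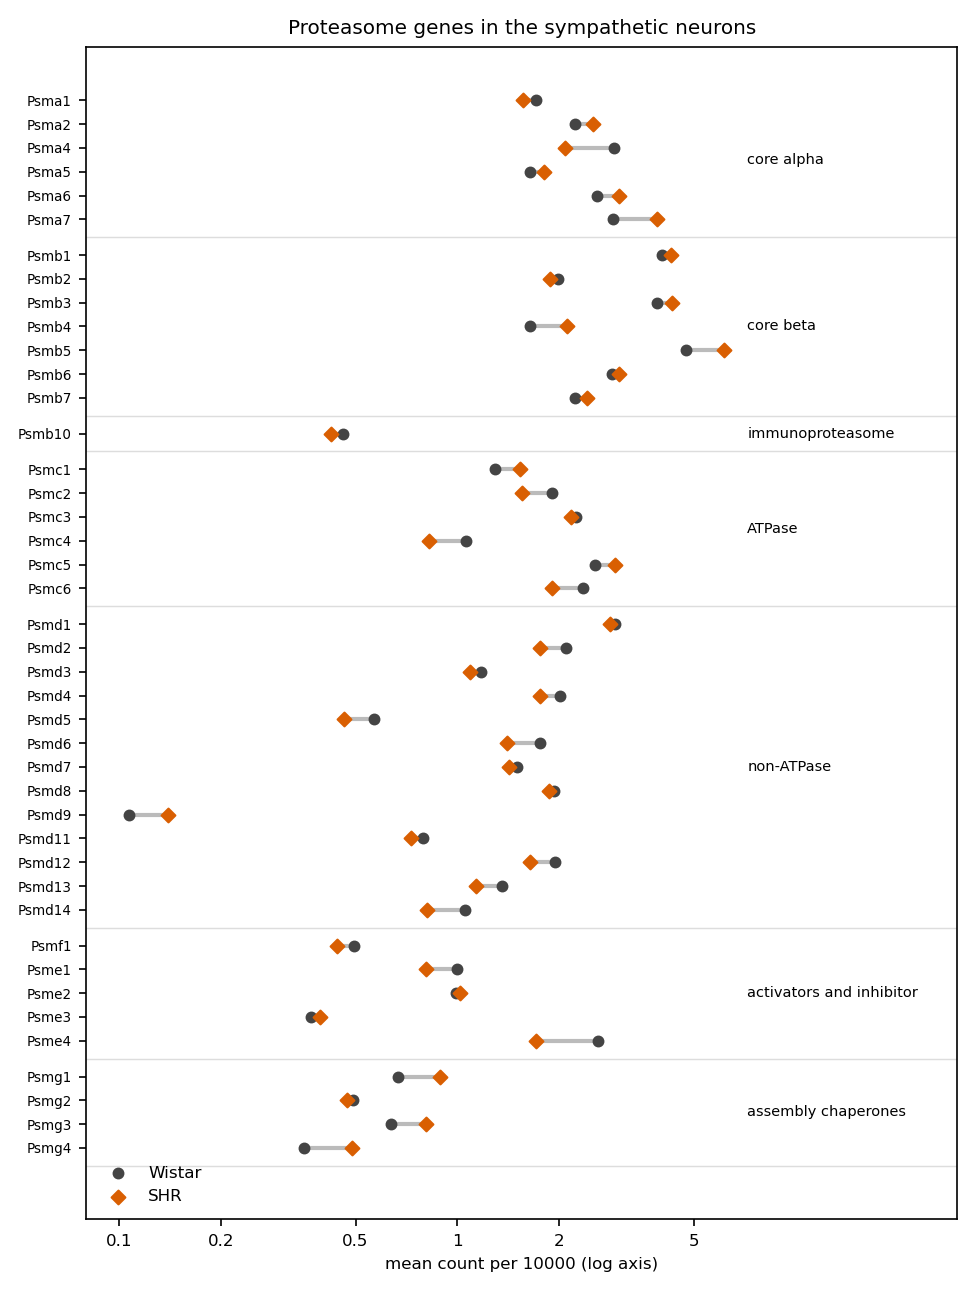
Mean count per 10000 (log axis) of the 42 proteasome genes past the minimum, with Wistar as circles and SHR as diamonds, 1 library each, so no error is drawn. Psmb5 is highest in both, at 4.75 and 6.13, Psma4 and Psma7 share a level in Wistar and lie apart in SHR, and the widest gap with SHR to the left is that of Psme4, at 2.60 and 1.71.

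Behind these near-equal totals the subunit groups differed in direction. The 20S core genes, alpha and beta together, summed to 35.3 per 10000 in Wistar and 39.0 in SHR, a percent change of 10.3%. The 19S genes, ATPase and non-ATPase together, summed to 30.7 in Wistar and 28.0 in SHR, a percent change of -8.71%, or -5.45% with the lid subunit gene Sem1, which the symbol rule leaves out. The ratio of the 19S sum to the 20S sum was therefore 0.868 in Wistar and 0.718 in SHR, and with Sem1 and the alpha gene Psma3l added it was 0.860 and 0.739. Adrm1, a proteasome ubiquitin receptor gene also outside the rule, was at 1.72 in Wistar and 1.74 in SHR. It is in none of these sums and ratios, nor in the counts that follow. The 19S sums include Psmd5, Psmd9 and Psmd10, genes of base assembly chaperones. Of the 13 core genes past the minimum 10 were higher in SHR, and of the 19 genes of the 19S particle 16 were lower, beside 34.4% higher and 65.6% lower of all genes past the minimum. With the median of all genes set to 0 these counts were 10 and 12, and with the level band medians set to 0 they were 7 and 15. Of all 1192 genes with an average of 1 to 3 per 10000, 49.3% were higher and 50.7% lower in SHR. In that range 6 of 9 core genes were higher and 12 of 14 genes of the 19S particle were lower. Within it, however, 5 of the 9 core genes lay at 2 to 3 per 10000 and 10 of the 14 genes of the 19S particle at 1 to 2, so the groups were not at one level. At 1 to 2 per 10000, 2 of 4 core genes were higher and 9 of 10 genes of the 19S particle lower.

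**Figure D2:**
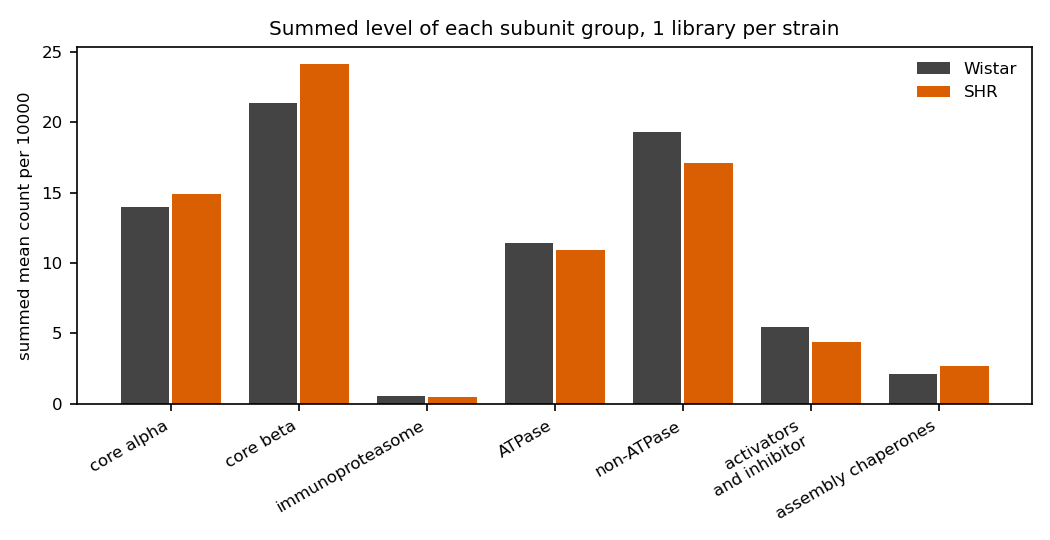
Summed mean count per 10000 of the genes of each subunit group in Wistar (grey) and SHR (orange), with bars from 0 and no error because each strain has 1 library. The beta bars stand at 21.4 and 24.1, the non-ATPase bars at 19.3 and 17.1, and the immunoproteasome bars at 0.551 and 0.459.

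The core alpha genes were even among themselves, with levels from 1.64 to 2.91 per 10000 in Wistar and from 1.56 to 3.89 in SHR over the 6 genes past the minimum. Psma7, an alpha ring subunit, stood at 2.89 per 10000 in Wistar and 3.89 in SHR, a percent change of 34.8% and a difference of 0.33. Psma4, another subunit of the same ring, started from almost the same Wistar level of 2.91 and stood at 2.07 in SHR, a percent change of -28.6% and a difference of -0.35. The pair thus had one level in Wistar and levels far apart in SHR, and their ranks among all genes went from 507 to 380 for Psma7 and from 503 to 749 for Psma4. In GRCr8 Psma4 lies next to Chrna5, a nicotinic receptor gene of the cluster that serves ganglionic transmission. The other alpha genes differed less. Psma6 was at 2.59 per 10000 in Wistar and 3.01 in SHR, Psma2 at 2.23 and 2.51, and Psma5 at 1.64 and 1.80, all higher in SHR. Psma1 was at 1.70 in Wistar and 1.56 in SHR. Psma8, which encodes the alpha subunit of the testis, was listed at 0 in Wistar and 0.00162 in SHR. The remaining alpha subunit gene appears in the tables only under the older symbol Psma3l, outside the symbol rule, at 2.28 in Wistar and 2.38 in SHR. The group sum was 14.0 in Wistar and 14.9 in SHR, a percent change of 6.45%, which rested on Psma7: without it the percent change was -0.946%.

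The core beta genes held the most abundant proteasome transcripts. Psmb5, which carries the chymotrypsin-like site, had the highest level of all members, at 4.75 per 10000 in Wistar and 6.13 in SHR. Among all genes it held rank 266 in Wistar and 225 in SHR. Its percent change was 29.1% and its difference 0.31, beside a median of 0.24 for genes at 5 per 10000 or more. The genes of the other cutting sites differed less, Psmb6 (caspase-like) with 2.86 in Wistar and 3.01 in SHR, and Psmb7 (trypsin-like) with 2.23 and 2.41. The Psmb5 level was thus above those of Psmb6 and Psmb7 in both libraries, and the gap was wider in SHR. Psmb4, a structural beta subunit, was at 1.64 in Wistar and 2.10 in SHR, a percent change of 28.6% and a difference of 0.24, just under the size limit. Psmb1 was at 4.01 and 4.29, and Psmb3 at 3.90 and 4.31, both structural subunits with abundant transcripts. Psmb2 was the only beta gene past the minimum that was lower in SHR, at 1.99 in Wistar and 1.88 in SHR. Psmb11, which belongs to the proteasome of thymic epithelium, was listed at 0 in both. In all, 6 of 7 beta genes past the minimum were higher in SHR, and the sum went from 21.4 to 24.1 per 10000, a percent change of 12.9%. Set against genes of their own level, however, the beta genes did not lean to SHR. With the median difference of each level band set to 0, 3 of the 7 were higher and 4 lower.

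The immunoproteasome genes were at low levels in both strains, and their listed values differed widely from each other. Psmb10 alone was past the minimum, at 0.458 per 10000 in Wistar and 0.424 in SHR, a percent change of -7.36%. This was 20.5% of the level of Psmb7, which it replaces, in Wistar and 17.6% in SHR. Psmb9 stood at 0.0917 per 10000 in Wistar and 0.0347 in SHR, or 3.21% and 1.16% of the level of its constitutive counterpart Psmb6. Psmb8, which replaces the highly expressed Psmb5, was listed at 0.000808 in Wistar and at 0 in SHR. Pomp, a maturation factor on which core assembly depends in every cell, was listed at 0 in both libraries, so an entry at or near 0 in these tables does not show that a gene was silent, and Psmb8 was not ranked against the others. In GRCr8 Psmb8 lies between Tap2 and Tap1, and Psmb9 next to Tap1, in the major histocompatibility complex, while Psmb10 lies on chromosome 19. The peptide transporter genes Tap1, at 0.0927 in Wistar and 0.0600 in SHR, and Tap2, at 0.0236 and 0.0126, were similarly low. Of the 7 genes with a line in the interferon and antigen presentation list, 3 were past the minimum. B2m, the light chain of class I molecules, was at 6.38 in Wistar and 6.82 in SHR, Irf1, an interferon response factor, at 0.271 and 0.142, and Tapbp, the transporter's partner, at 0.140 and 0.106. The immune marker Cd74 was lower in SHR as well, at 0.843 in Wistar and 0.329 in SHR, and Aif1 at 0.105 and 0.0147. Of the 8 immune markers only Cd74 was past the minimum. Ptprc went the other way, at 0.00388 in Wistar and 0.00473 in SHR. Whether the Psmb9 counts came from immune cells or their free RNA was not tested.

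The ATPase genes, whose products form the ring that unfolds substrates, were lower in SHR in 4 of 6 cases, and in 3 of 6 with the median of all genes set to 0. The 2 that were higher are 33.3% of the group, near the 34.4% of all genes past the minimum. Among genes at 1 to 3 per 10000, where all of the group but Psmc4 lie, 49.3% were higher. With the level band medians set to 0, 2 of the ATPase genes were again higher and 4 lower, with a median difference of -0.11. Psmc6 was at 2.35 per 10000 in Wistar and 1.91 in SHR, a difference of -0.20, Psmc2 at 1.90 and 1.56, a difference of -0.18, and Psmc4 at 1.06 and 0.822, a difference of -0.18. Psmc3 was at 2.24 in Wistar and 2.17 in SHR, a percent change of only -3.01%. Psmc1 and Psmc5 went the opposite way. The first stood at 1.29 in Wistar and 1.53 in SHR, a percent change of 18.4%, and Psmc5 stood at 2.55 and 2.93, a percent change of 14.9%. Transcript levels of the group were less even in SHR, where the highest was 3.57 times the lowest, than in Wistar, at 2.40 times. Both ratios rest on Psmc5 and Psmc4 alone. The difference climbed with level over all genes too, and the part of this in the ratios was not tested. None of the 6 reached the size limit, and the sum went from 11.4 to 10.9 per 10000, a percent change of -4.14%.

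Most non-ATPase genes were lower in SHR, with small differences. Of the 13 genes past the minimum 12 were lower, beside 65.6% of all genes, or 9 with the median of all genes set to 0, none reached the size limit, and the median difference was -0.10. As deposited, each of the 8 lid genes of the symbol rule was lower. Psmd14, the lid's deubiquitinating enzyme, was at 1.05 per 10000 in Wistar and 0.813 in SHR, a percent change of -22.8%. Psmd6 was at 1.76 and 1.40, with the lowest difference of the group at -0.20. Psmd12 was at 1.95 and 1.64, and Psmd13 at 1.36 and 1.13, with percent changes of -15.9% and -16.5%. The other 4 lid genes were closer between the strains, with percent changes from -8.06% for Psmd11 to -3.63% for Psmd8. These were Psmd11 with 0.792 in Wistar and 0.728 in SHR, Psmd3 with 1.17 and 1.09, Psmd7 with 1.50 and 1.42, and Psmd8 with 1.93 and 1.86.

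The non-ATPase genes of the base went the same way. Psmd2, a scaffold that docks ubiquitin-like proteins, was at 2.10 per 10000 in Wistar and 1.75 in SHR, a percent change of -16.5%. Psmd4, a ubiquitin receptor, was at 2.01 and 1.75, a percent change of -13.1%. Psmd1, the other large scaffold and the most abundant gene of the group, was at 2.92 and 2.83, a percent change of only -3.38%. Of the 3 genes that encode chaperones of base assembly, Psmd5 was at 0.567 in Wistar and 0.462 in SHR. Psmd9, at 0.107 and 0.140, and Psmd10, at 0.0661 and 0.0817 and so under the minimum, were higher in SHR at much lower levels. The group sum went from 19.3 to 17.1 per 10000, a percent change of -11.4%, and was -12.5% for the lid genes alone. Both rest on leaving out Sem1, a small lid subunit gene outside the symbol rule that was higher in SHR: with it, the percent change was -6.16% for the group and -3.97% for the lid. In the range of 1 to 3 per 10000 all 9 non-ATPase genes of the symbol rule were lower in SHR, beside 50.7% of all genes there. Sem1 and the ubiquitin receptor gene Adrm1, outside the rule but in this range, were higher in SHR. Sem1 was at 1.65 in Wistar and 2.56 in SHR, and Adrm1 at 1.72 and 1.74.

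**Figure D3:**
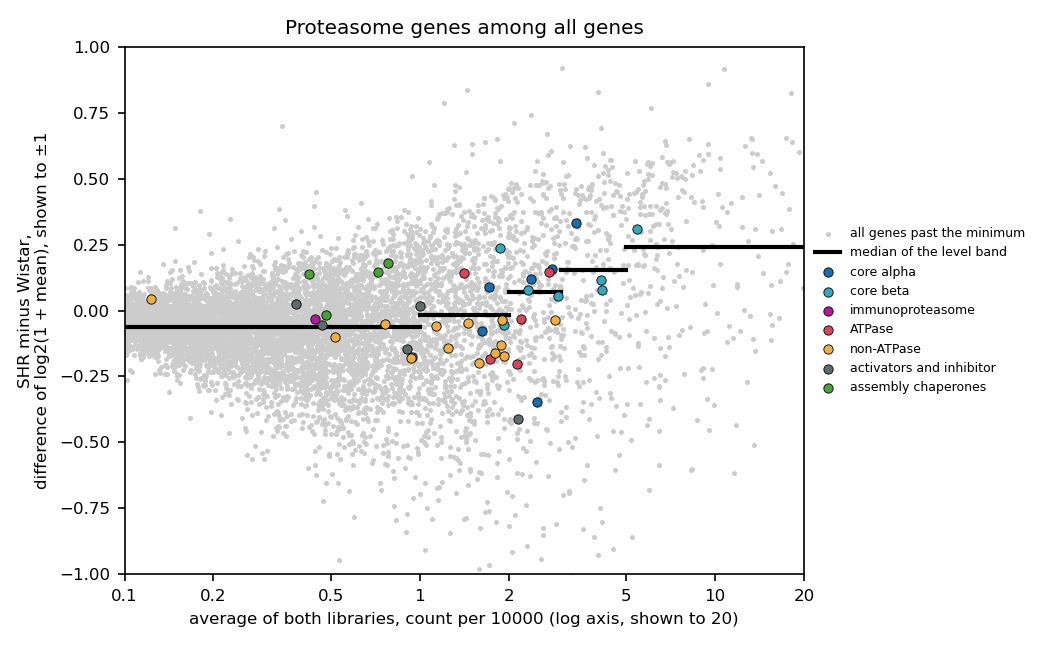
Difference between the strains (SHR minus Wistar, as log2 of 1 plus the mean) against the average level (log axis) for all genes past the minimum in grey and the 42 proteasome genes in color by group, with black bars at the median of each level band. The bars climb from -0.061 to 0.24 with level, and the plot leaves out 46 genes beyond its axes, none of them a proteasome gene.

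The largest difference of any member belonged to Psme4, the gene of the nuclear activator that caps the core without ATP. It stood at 2.60 per 10000 in Wistar and 1.71 in SHR, a percent change of -34.4% and a difference of -0.41, and its rank went from 568 to 932. Psme4 was also by far the most abundant activator gene in both libraries. The interferon-inducible activator is built of the products of Psme1 and Psme2, which lie on either side of Emc9 in GRCr8. Psme1 was at 0.999 in Wistar and 0.808 in SHR, and Psme2 at 0.993 and 1.02, so the pair was level in Wistar and apart in SHR. Psme3, of the nuclear homolog, was at 0.369 and 0.391, and Psmf1, which encodes an inhibitor of the core, at 0.495 and 0.441. The group sum went from 5.46 to 4.36 per 10000, a percent change of -20.1%, and most of it was Psme4: without it the percent change was -7.01%.

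The assembly chaperone genes, whose products guide the alpha ring together, were higher in SHR in 3 of 4 cases. Psmg1 was at 0.667 per 10000 in Wistar and 0.888 in SHR, a percent change of 33.2% and a difference of 0.18. Psmg3 was at 0.635 and 0.810, a percent change of 27.6%, and Psmg4 at 0.353 and 0.488, a percent change of 38.5%. Psmg2, whose product pairs with that of Psmg1, was at 0.491 and 0.473. The sum went from 2.15 to 2.66 per 10000, a percent change of 23.9%. At these levels, 0.5 to 1 per 10000, 36.5% of all genes were higher in SHR, and at 0.1 to 0.5, where Psmg2 and Psmg4 lie, 26.1%. With the level band medians set to 0, all 4 were higher. Pomp, which acts with these chaperones, was listed at 0 in both libraries, as was Uchl3, a ubiquitin hydrolase.

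**Figure D4:**
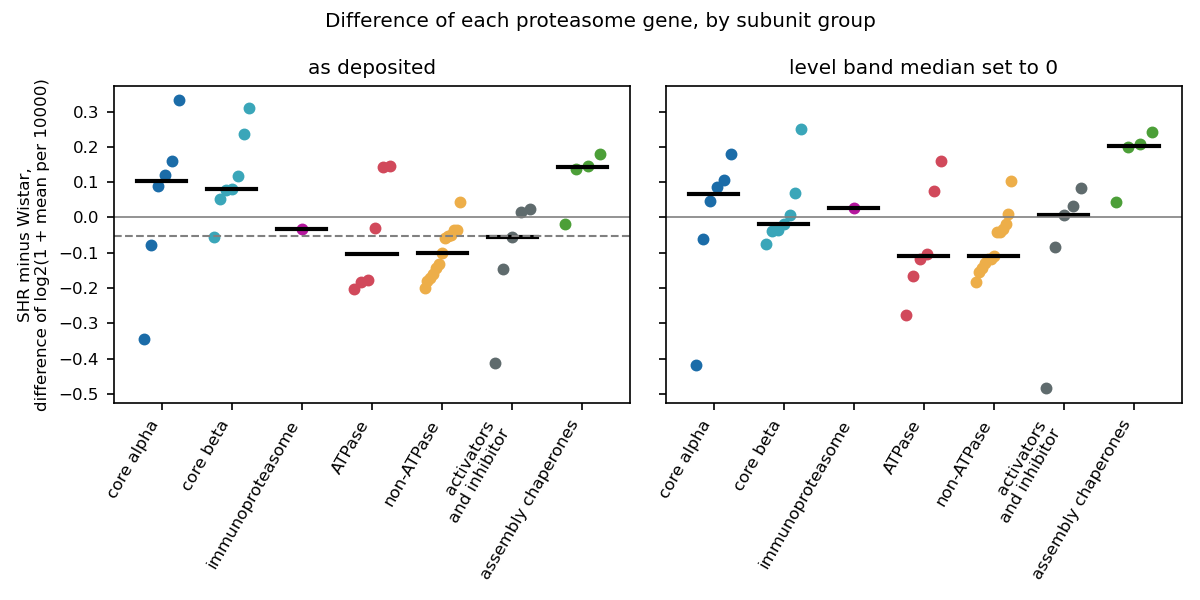
Difference of each of the 42 proteasome genes past the minimum by subunit group, as deposited (left, dashed line at the median of all genes, -0.052) and with the median of the gene's level band set to 0 (right). Black bars are group medians: non-ATPase lies at -0.10 on the left and -0.11 on the right, core beta at 0.079 and -0.019, and assembly chaperones at 0.14 and 0.20.

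Proteasome partners that the symbol rule leaves out gave no common direction. Of 11 partner genes with a line, 10 were past the minimum, and 6 of these were higher and 4 lower in SHR, with 1 past the size limit upward and 0 downward, beside 34.4% higher of all genes, 6.53% past the limit upward and 11.8% downward. The gene past it was Sem1, a small lid subunit, at 1.65 per 10000 in Wistar and 2.56 in SHR, a percent change of 55.2% and a difference of 0.43, against the direction of the 8 lid genes above. The largest difference downward was that of Ecpas, a proteasome adaptor, at 1.29 and 0.990, which is -0.20. Usp14, a deubiquitinase of the base, was at 3.09 and 2.63, and the ubiquitin receptor Adrm1 at 1.72 and 1.74.

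Genes of ubiquitin and its delivery were among the most abundant of the pathway. Of 17 genes with a line, 16 were past the minimum, with 7 higher and 9 lower in SHR, 2 past the size limit upward and 0 past it downward. This is beside 34.4% of all genes higher, 6.53% past the limit upward and 11.8% past it downward. Uchl1, the neuronal ubiquitin hydrolase, was at 25.0 per 10000 in Wistar and 30.8 in SHR, a difference of 0.29. Rps27a, which encodes ubiquitin fused to a ribosomal protein, had the largest difference upward, 0.42, at 0.791 in Wistar and 1.39 in SHR. The genes that draw out and deliver substrates were close between the strains. Vcp, the segregase that extracts tagged proteins, was at 5.17 and 5.03, and Sqstm1, a receptor that binds ubiquitin chains, at 3.77 and 3.86. The largest difference downward, -0.19, was that of Nploc4, a cofactor of Vcp, at 0.749 and 0.529.

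The genes that lead to proteasome gene transcription were low in both libraries and lower in SHR. Of these 5 genes 4 were past the minimum, and each of the 4 was lower, beside 65.6% of all genes past the minimum. Their median difference was -0.15, and 1 was past the size limit downward, beside 11.8% of all genes. The gene past it was Ddi2, the protease that activates the factor, at 0.589 per 10000 in Wistar and 0.314 in SHR. Nfe2l1, the factor itself, was at 0.269 and 0.192, Ngly1, which deglycosylates it, at 0.377 and 0.298, and Syvn1, a ubiquitin ligase of the endoplasmic reticulum, at 0.629 and 0.405. In their bands of level most genes were lower in SHR too, with 26.1% higher at 0.1 to 0.5 per 10000 and 36.5% at 0.5 to 1.

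Copies of proteasome genes limit how sharply some levels can be read. In GRCr8, 18 of the 47 genes share their symbol with a named pseudogene or like gene, 50 copies in all, and Psmb3 has the most, 10. All 18 were past the minimum. Among them are Psma7, Psma6, Psmb4 and Psmd14, while Psmb5, Psma4, Psme4 and Psmg1 have none by symbol. How reads were shared out between a gene and its copies is not given in the sources used here.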

How the data were processed

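Dissociated stellate ganglia of 1 Wistar and 1 SHR library were sequenced by scRNAseq. The submitters' processing notes name Cell Ranger 3.0.2, Seurat 3, DESeq2 and the build Rnor_6.0, and cell filters, doublet treatment and neuron numbers are not given in the sources used here. For each library the authors deposited 1 natural log value per gene, that of 1 plus the mean count per 10000 over the sympathetic neurons. Converted back, each table summed to 10000. A table of the authors' own comparison, with fold changes, p-values and shares of cells, was not used. The 4 lines with repeated names were left out.

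Means, sums, percent changes and differences of log2(1 + mean) were computed with Python 3.11.15, NumPy 2.4.6 and pandas 2.3.3, with a pseudocount of 1, a minimum average of 0.1 per 10000 and a size limit of 0.25. The arithmetic of the difference was checked on simulated tables without noise, which cannot bear on counting error. With 1 library per strain no test, SD or interval was possible, and depth is unknown. Every member of the symbol rule is named. Of the gene lists other than cell type markers, the 3 most abundant genes and the largest differences each way past the minimum are named. Further genes, such as Slc6a2, Slc18a2, Npy, Phox2a, Apoe, Cd74, Aif1, Tap1, Tap2, Nfe2l1, Uchl3, Pomp and Chrna5, were chosen after their values were seen. Some genes of the ubiquitin list are not reported here. The members and lists were chosen with earlier results of these data known. Promoters, gene order and gene copies are from RefSeq on GRCr8, matched by symbol for all 47 genes. Alternatives were other pseudocounts, minimums, scalings, centrings and group definitions.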

Additional observations from a re-analysis of the deposited data

How the results depend on the processing

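No paired analysis was possible because there is only 1 library for either strain, and no library could be left out. The centring by level band and the sums with Psma3l or Sem1 were chosen after the data were examined. Counts past the size limit followed the pseudocount by construction. In place of 2 higher and 2 lower, they were 6 and 8 with a pseudocount of 0.1, 7 and 11 with 0.01, and 0 and 0 with 10, and with a size limit of 0.5 they were 0 and 0. With the level band medians set to 0, 1 gene was higher by the limit. The median difference of the members, -0.034, became 0.018 with the median of all genes set to 0, which adds 0.052 to each gene. This changed the sign of 6 of 42 genes and the band centring that of 7, while no rescaling changed a sign. A pseudocount cannot change the sign of a difference, so those runs do not bear on it. Without its most abundant gene, the percent change of the sum became -0.946% for core alpha, -62.5% for the immunoproteasome, -9.64% for the ATPases and -7.01% for activators and inhibitor. With Sem1 the percent change of the non-ATPase sum, -11.4%, became -6.16%, and that of the lid alone -3.97%. The sums of core beta, non-ATPase and assembly chaperone genes otherwise moved by at most 5 percentage points under each rescaling and omission run. Depth is unknown, so the least abundant genes are the least certain.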
